A study of Mus musculus with 5 samples.

Results

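Cytochrome P450 genes were followed in sorted pigment cells of mouse back skin. Members were all genes of the deposited count table whose mouse symbol is Cyp followed by a number, letters and a number, which gave 94 of 24100 genes in 39 subfamilies. P450 genes whose symbols have another form were left out of all counts and sums below. A member was counted as measured when it reached at least 1 CPM (its counts scaled to the library total) in 2 or more of the 5 libraries. This held for 28 members in 20 subfamilies (29.8% of members, against 58.7% of all genes). The level threshold was applied to the same libraries that are compared below but took no account of their groups.

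Melanocytes came from 10-day-old male mice in full anagen, the growth phase of the hair cycle (3 libraries, pooling 3, 2 and 4 males). They carried the reporters Dct-EGFP+ and Lef1-RFP+ on a mixed CD1/C57Bl6J background. Quiescent melanocyte stem cells (McSC, also called the stem cells below), the resting reserve of the pigment lineage, came from males of postnatal days 60 and 62 in second telogen, the resting phase (2 libraries, each pooling 4 males). They carried Dct-eGFP+ alone on the same mixed background. Both were sorted as positive for the Dct reporter and medium to low for integrin α6, without CD31, CD45, CD140a, Sca-1 and CD34, and the melanocyte gate also required Lef1-RFP and c-Kit. The effects of age, of the stage of the hair cycle, of the reporter strain and of the gate cannot be told apart, since they differed together.

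Cytochrome P450 enzymes are haem proteins that insert an oxygen atom into small lipophilic molecules. Microsomal members receive electrons from NADPH-cytochrome P450 reductase and cytochrome b5, mitochondrial members from ferredoxin and its reductase. Some members act on one kind of endogenous molecule (retinoic acid, vitamin D, sterols, fatty acids), whereas many members of families 1, 2 and 3 clear drugs and other foreign compounds. In skin they take part in barrier lipid synthesis, retinoid clearance and the response to environmental aryl hydrocarbons.

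Library totals ranged from 17512381 to 124530834 counts, so that 3 counts stand for 0.0241 to 0.171 CPM. All levels below are CPM normalised for library composition by TMM. Lineage markers (12 genes, among them Dct, Tyr, Mitf and Sox10) were present in every library, at summed levels of 3249, 18902 and 20604 CPM in melanocyte replicates 1 to 3 and 21645 and 22884 CPM in quiescent McSC replicates 1 and 2. Melanocyte replicate 1 was thus the lowest in lineage markers, and it was the highest in the fibroblast and dermal papilla markers (5761 CPM, with 2305 and 2139 CPM in the other melanocyte libraries and 112 and 82.4 CPM in quiescent McSC). Of the lineage markers 4 were called lower in melanocytes and none higher. Of the 14 fibroblast and dermal papilla markers all were called higher in melanocytes, as were 16 of 17 hair follicle, 11 of 11 muscle and pericyte and 9 of 10 endothelial markers, 6 of 14 tested immune and 2 of 4 tested adipocyte markers. Of 14 keratinocyte markers 5 were called higher and 7 lower, of 14 sebocyte markers 3 and 10, and of 10 Schwann cell markers 4 and 5. In sorted bulk cells, fewer cells of a type and less RNA per cell cannot be told apart, and the part of other cell types in the differences below was not tested.

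The summed RNA of the members so defined was lower in melanocytes. The members summed to 194.5, 199 and 196 CPM in melanocyte replicates 1 to 3, against 842 and 835 CPM in quiescent McSC replicates 1 and 2. The 2 groups did not overlap, and the libraries of each group lay close together. A single gene, Cyp2d22, made up 4.68, 2.00 and 1.23% of these reads in melanocytes and 37.2 and 35.9% in quiescent McSC. Without it the sums were 185, 195 and 193.5 CPM in melanocytes and 529 and 535 CPM in the stem cells. These are sums of reads, so long transcripts weigh more than short ones.

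**Figure D1:**
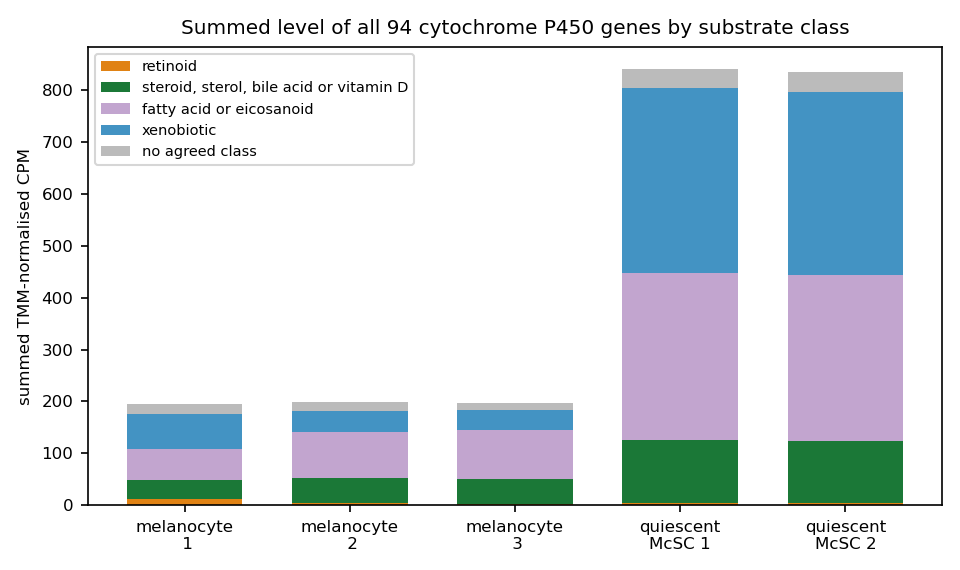
Stacked bars give the summed TMM-normalised CPM of all 94 members in each of the 5 libraries, by substrate class. Melanocyte libraries stand at 194.5 to 199 CPM and quiescent McSC libraries at 835 and 842 CPM. The xenobiotic and fatty acid classes make up most of the gap, the xenobiotic class mainly through the single gene Cyp2d22. That class sums to 68.6, 41.5 and 37.7 CPM in melanocytes, of which Cyp2d22 has 9.10, 3.97 and 2.41. In quiescent McSC it sums to 357.7 and 351.8 CPM, of which Cyp2d22 has 312.7 and 300.1.

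Of the 94 members, 46 passed the low-count filter of the fit across all genes, and with a Benjamini-Hochberg adjusted p under 0.05 in edgeR's quasi-likelihood test 5 were called higher and 22 lower in melanocytes. Across all 16953 tested genes 55.4% were called, 29.1% higher and 26.2% lower in melanocytes. The shares among tested members were 10.9% higher and 47.8% lower. The median log2 fold change (melanocyte minus quiescent McSC throughout) was -1.27 over these 46 members, and the same with the 2 genes absent from a group set at their bound, against 0.03 over all tested genes. Without melanocyte replicate 1, which stood apart in its markers, 4 members were called higher and 25 lower. Over all genes that fit called 5148 higher and 4857 lower, against 4937 and 4448 with all libraries. Without melanocyte replicate 2, 3 members were called higher and 18 lower, beside 4189 and 4059 of all genes. The family was not tested as a set.

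Of the 28 measured members, 3 were called higher, 18 lower and 7 were not called, where 30.7% and 29.3% of all tested genes of that level were called higher and lower. The filter bears on these counts. In 9 of the 28 members only quiescent McSC libraries reached 1 CPM, and in Cyp11a1 and Cyp2e1 only melanocyte libraries did. The 9 were Cyp1a1, Cyp17a1, Cyp26c1, Cyp2b10, Cyp2b23, Cyp2j12, Cyp2r1, Cyp3a13 and Cyp3a57. For members that reached 1 CPM in a single group the direction came with that threshold and is given as a description. Among the 17 members that reached it in both groups, 2 were higher, 9 lower and 6 not called. The melanocyte libraries all lay below the quiescent McSC libraries in 23 of the 28 and above them in 4, and in Cyp26b1 alone the groups overlapped. Of the 14141 tested genes of that level, 5514 lay below and 5529 above. Over all tested genes the shares were 36.4% and 38.1%. Just inside the level threshold stood Cyp17a1, with 2.07 and 1.04 CPM on library totals in quiescent McSC. Just outside stood Cyp2t4, with 1.13 and 0.996 CPM there.

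**Figure D2:**
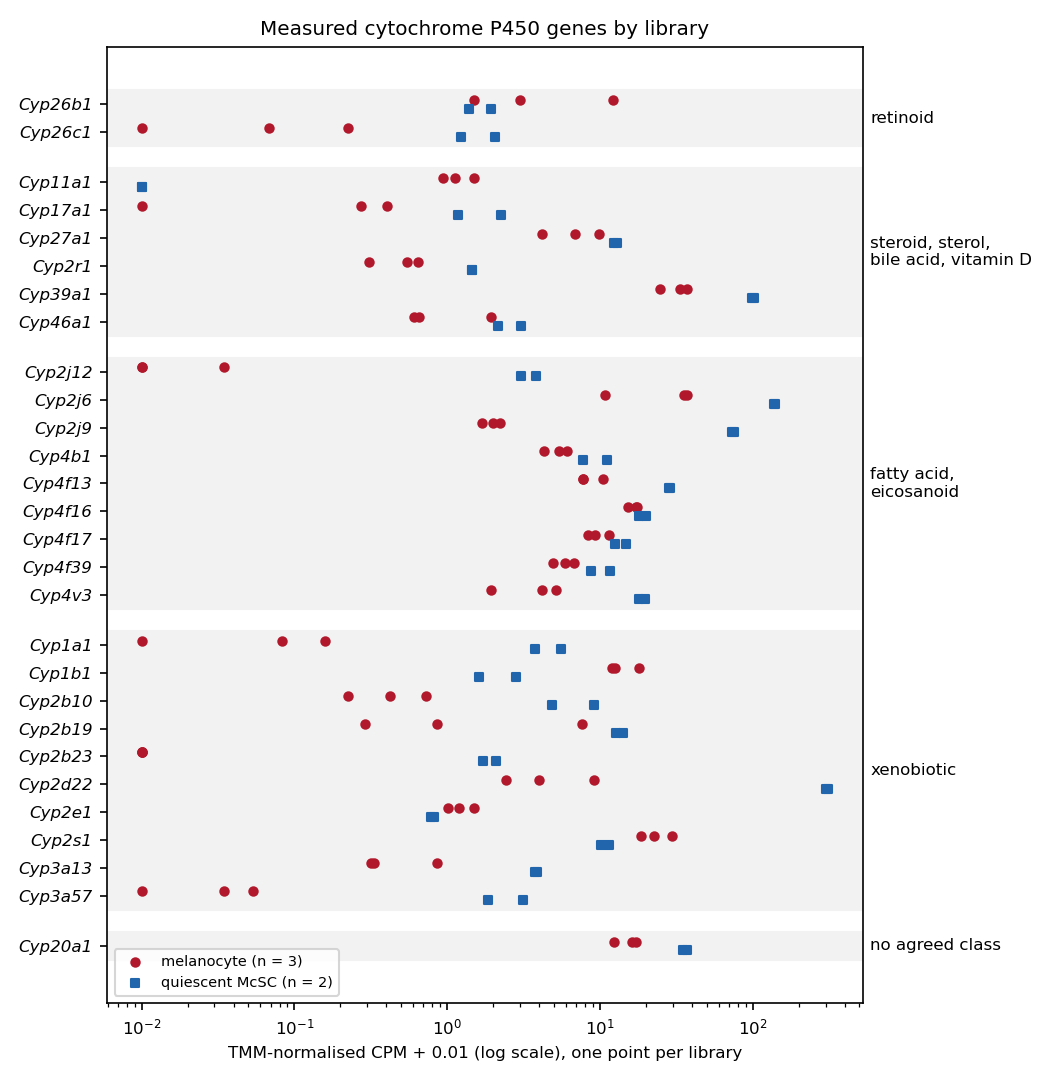
Each point is one library, placed by TMM-normalised CPM plus 0.01 on a log axis, for the 28 measured members grouped by substrate class. Points at 0.01 had no count. Melanocyte libraries lie left of quiescent McSC libraries in 23 members, and right of them in Cyp11a1, Cyp1b1, Cyp2e1 and Cyp2s1.

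**Figure D3:**
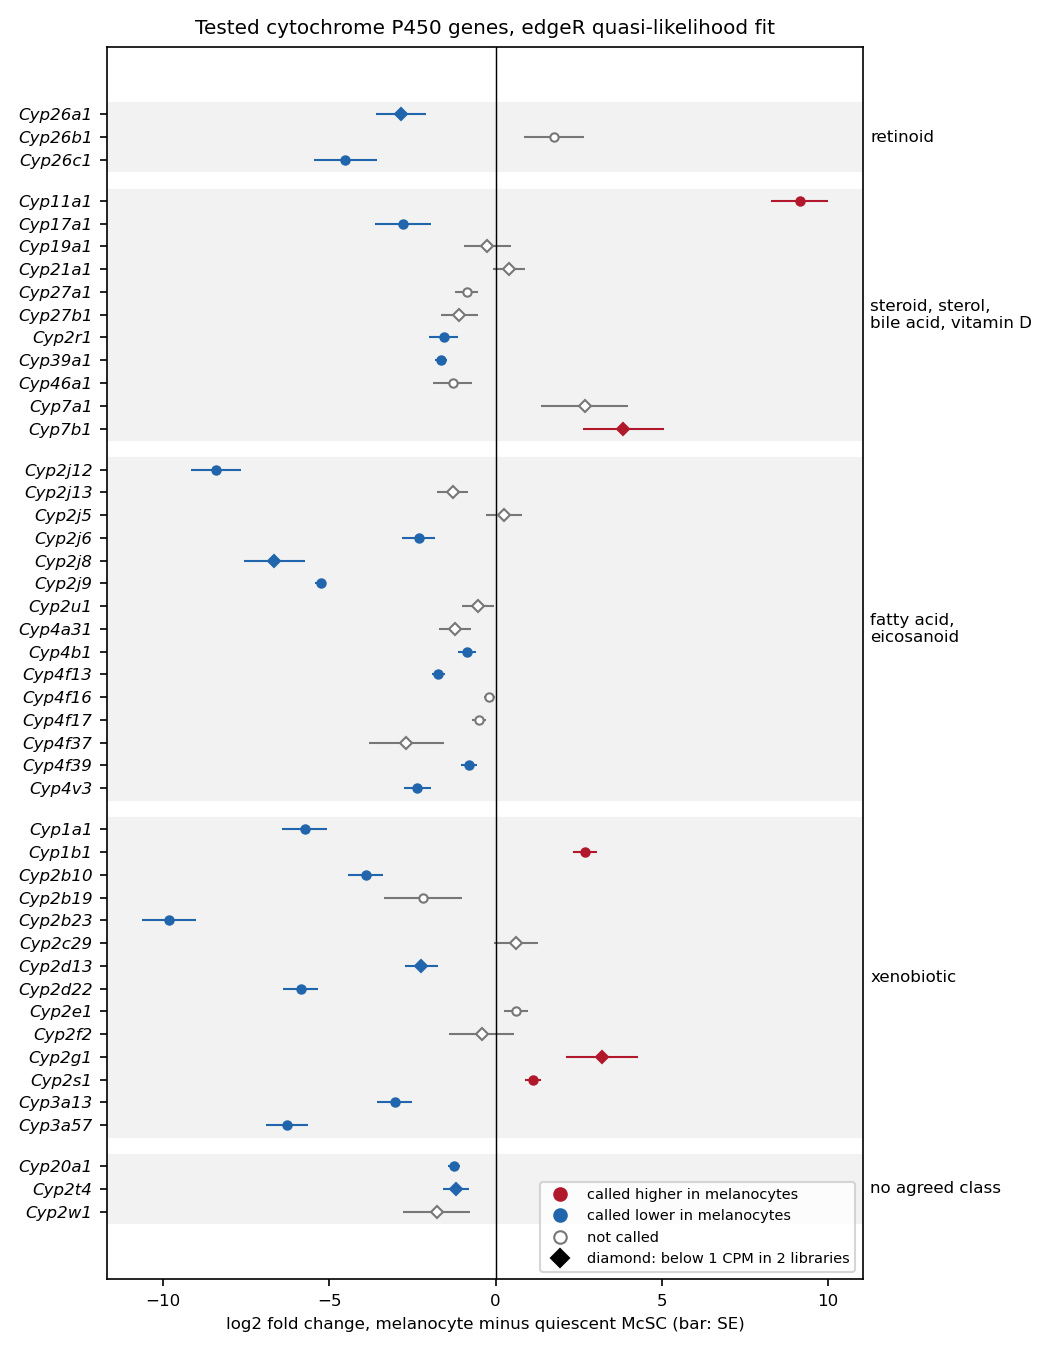
Log2 fold changes (melanocyte minus quiescent McSC) with SE for the 46 tested members from the edgeR fit, where filled symbols are called and diamonds mark members below the level threshold. Of these, 5 are called higher and 22 lower. The fitted values of Cyp11a1 and Cyp2b23, which had no count in one group, depend on the prior count and are no bounds.

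The retinoid class holds the 3 Cyp26 genes, whose enzymes hydroxylate retinoic acid and so end its signal. Cyp26a1 and Cyp26c1 lie side by side on chromosome 19 (37697738 to 37701536 and 37685112 to 37693320 on GRCm38) and were both lower in melanocytes, whereas Cyp26b1 on chromosome 6 (84571414 to 84593908) was not called. Cyp26a1 is a direct target of retinoic acid receptors, which bind repeated sites near its start. The 250 bases before the RefSeq starts are shown for Cyp26a1 (chr19:37697558-37697807, plus strand) and Cyp26b1 (chr6:84593811-84594060, minus strand). Of this pair only Cyp26a1 was called. Sequences are from RefSeq, build GRCm38.p6, and capitals mark matches to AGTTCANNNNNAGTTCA on either strand.
Cyp26a1: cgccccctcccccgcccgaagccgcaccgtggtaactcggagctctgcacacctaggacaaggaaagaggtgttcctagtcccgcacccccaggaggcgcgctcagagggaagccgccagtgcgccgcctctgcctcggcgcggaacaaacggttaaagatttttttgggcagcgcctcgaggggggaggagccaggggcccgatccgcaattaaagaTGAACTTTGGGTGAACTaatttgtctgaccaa
Cyp26b1: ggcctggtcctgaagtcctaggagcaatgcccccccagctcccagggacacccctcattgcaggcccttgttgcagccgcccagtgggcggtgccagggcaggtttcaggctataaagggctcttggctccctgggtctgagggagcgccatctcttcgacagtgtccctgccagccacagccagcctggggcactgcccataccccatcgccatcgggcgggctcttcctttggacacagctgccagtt

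The Cyp26a1 window held 1 match, on the opposite strand and 32 to 16 bases before the start, and the Cyp26b1 window held none. The window of Cyp26c1, which was also called lower, is not shown and held none as well. Both windows shown reach into the gene spans given above, so each precedes an annotated start inside its span, not the outermost base. The letters occurred in 4 of 21752 such windows of the table's genes (0.0184%), and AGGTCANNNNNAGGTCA occurred in 1 of them and in no member's window. A match describes letters only, and its absence says nothing about a factor.

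Cyp26c1 had 0, 0.0587 and 0.214 CPM in melanocytes, against 1.22 and 2.05 CPM in quiescent McSC (log2 fold change -4.53 ± 0.95 SE, adjusted p = 0.00826). Cyp26a1 had 0.0987, 0.0440 and 0.267 CPM in melanocytes, against 0.561 and 1.06 CPM in quiescent McSC (-2.85 ± 0.75, adjusted p = 0.0193). Both were separated between the groups, at low levels throughout. Without melanocyte replicate 3 their log2 fold changes were -5.48 (Cyp26c1) and -3.57 (Cyp26a1). The call of Cyp26a1 was lost without melanocyte replicate 2 (adjusted p = 0.0501) and without quiescent McSC replicate 2 (0.126), and that of Cyp26c1 without quiescent McSC replicate 2 (0.0543). Cyp26b1 had 12.1, 3.01 and 1.5 CPM in melanocytes, against 1.93 and 1.38 CPM in quiescent McSC (1.76 ± 0.89, adjusted p = 0.141). Melanocyte replicate 1 set its mean, and the third melanocyte library lay between the 2 quiescent McSC libraries. The dermal papilla marker Corin ran the same way over melanocytes, at 449, 45.9 and 31.1 CPM, with 0.513 and 0.205 CPM in quiescent McSC. Of its marker list only Dcn (555, 533 and 567.5 CPM) and Fbln1 (93.8, 95.3 and 116.5 CPM) were not highest in melanocyte replicate 1. The part of such cells was not tested.

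Other retinoid genes were called in both directions. Of 26 genes of retinoid uptake, conversion, binding and reception, 10 were called higher (38.5%) and 7 lower (26.9%) in melanocytes, against 29.1% and 26.2% of all tested genes (median log2 fold change 0.60 against 0.03). The share called lower was thus near that of all genes. The retinol receptor gene Stra6 stood at 311, 406 and 235 CPM in melanocytes, against 2.34 and 0.455 CPM in quiescent McSC (7.89 ± 0.83, adjusted p = 0.000624). Aldh1a3, which makes retinoic acid, stood at 282, 361 and 152 CPM in melanocytes, against 3.06 and 0.188 CPM in quiescent McSC (7.43 ± 1.24, adjusted p = 0.00345). All 3 melanocyte libraries were far above both quiescent McSC libraries in these genes. The stem cell libraries differed between themselves in both genes. Without replicate 1 or replicate 2 of them the log2 fold change was 9.44 or 7.08 for Stra6 and 10.45 or 6.43 for Aldh1a3. The hair follicle markers summed to 4310, 5905 and 4200 CPM in melanocytes, against 177.5 and 176.8 CPM in quiescent McSC. The part of such cells in Stra6 and Aldh1a3 was not tested. The dehydrogenase gene Dhrs9 was also called higher, at 5.67, 4.12 and 2.46 CPM in melanocytes, against 0.594 and 0.438 CPM in quiescent McSC. Called lower were the alcohol dehydrogenase Adh1 (-3.37 ± 0.28), the retinol dehydrogenase Sdr16c5 (-2.60 ± 0.36), the receptor Rxrg (-2.99 ± 0.43) and Adh7 (-2.30 ± 0.50). Adh7 was not called without quiescent McSC replicate 2 (adjusted p = 0.0763). Leaving out either quiescent McSC library gave fewer calls among these genes, and fewer among all genes.

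**Figure D4:**
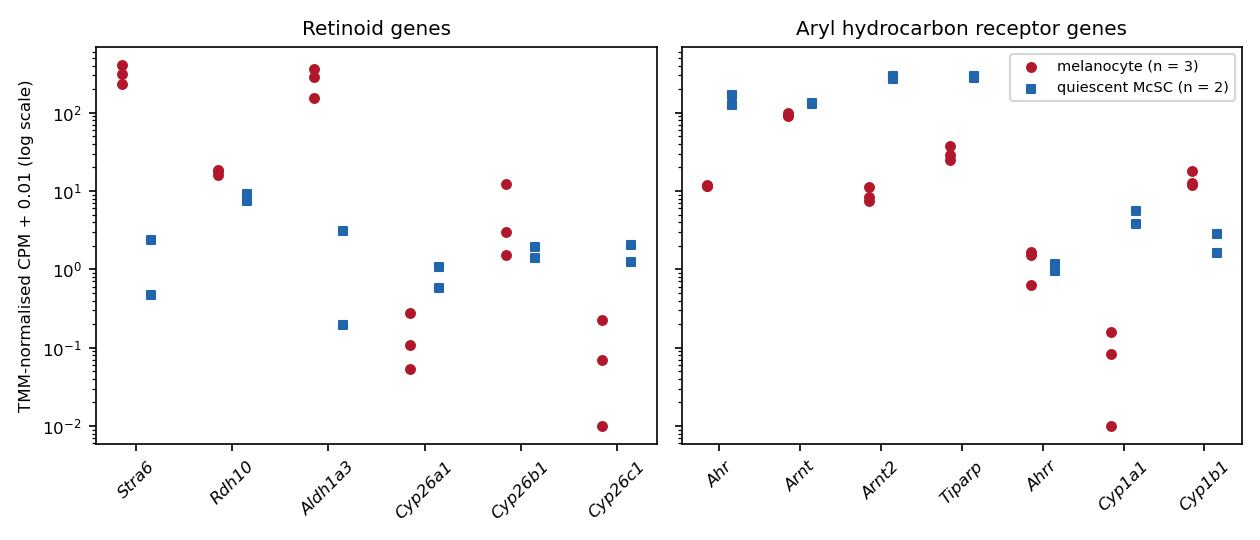
Each point is one library, placed by TMM-normalised CPM plus 0.01 on a log axis, for genes of retinoid uptake, synthesis and clearance (left) and of aryl hydrocarbon signalling (right). Stra6 and Aldh1a3 lie between 152 and 406 CPM in the melanocyte libraries, where Cyp26a1 and Cyp26c1 reach at most 0.267 CPM, and Cyp1a1 and Cyp1b1 differ in opposite directions.

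The class of steroid, sterol, bile acid and vitamin D enzymes has 15 members, of which 6 were measured and 11 tested. Of those tested, Cyp11a1 and Cyp7b1 were called higher in melanocytes and Cyp17a1, Cyp2r1 and Cyp39a1 lower. These shares of 18.2% higher and 27.3% lower stand against 29.1% and 26.2% of all tested genes, so the share called lower was near the background. Cyp39a1, an oxysterol hydroxylase of bile acid synthesis (chromosome 17, 43667372 to 43751431), carried most of the reads of the class. It stood at 24.8, 37.3 and 33.6 CPM in melanocytes, against 102 and 99.3 CPM in quiescent McSC (-1.66 ± 0.18, adjusted p = 0.000686). The groups were well apart, and the call held in each of the 12 alternative fits.

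Cyp11a1, the mitochondrial enzyme that cuts the cholesterol side chain in the first step of steroid synthesis (chromosome 9, 57998024 to 58027031), had 60, 63 and 21 counts in melanocytes and none in either quiescent McSC library, although these were the 2 deepest. This put it at 1.48, 0.924 and 1.12 CPM in melanocytes and at least 65.7-fold higher than in quiescent McSC, against 3 counts over that group (adjusted p = 0.000843). Cyp17a1, the hydroxylase and lyase on the way to androgens, had 0.395, 0.264 and 0 CPM in melanocytes, against 2.25 and 1.16 CPM in quiescent McSC (-2.79 ± 0.84, adjusted p = 0.0308). The 2 steroidogenic genes ran in opposite directions. Each reached the level threshold only in the group where it was higher, so this contrast is given as a description. The call of Cyp17a1 was lost without melanocyte replicate 2 (0.0893) or either quiescent McSC library (0.163 and 0.0684).

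Vitamin D enzymes were low throughout. Cyp2r1, which makes the circulating form of vitamin D, had 0.296, 0.631 and 0.535 CPM in melanocytes, against 1.44 and 1.44 CPM in quiescent McSC (-1.56 ± 0.43, adjusted p = 0.0235). Its call was lost without melanocyte replicate 3 (0.0504), after leaving out either stem cell library (0.0958 and 0.0991), after thinning (0.0552) and when replicate number was a block (0.0674). Cyp27b1, which makes the active hormone, had 0.592, 0.572 and 0.428 CPM in melanocytes, against 1.72 and 0.589 CPM in quiescent McSC (adjusted p = 0.136), with overlapping groups. Cyp24a1, which breaks that hormone down, had 3 counts in each group and was not tested. The vitamin D receptor gene Vdr was called higher in melanocytes, at 178, 152 and 121 CPM, against 45.7 and 37.9 CPM in quiescent McSC (1.85 ± 0.20, adjusted p = 0.000663).

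Cyp27a1, the mitochondrial sterol hydroxylase of bile acid synthesis, had 4.19, 6.91 and 9.84 CPM in melanocytes, against 12.4 and 13.0 CPM in quiescent McSC (-0.87 ± 0.36, adjusted p = 0.081). It was called by DESeq2 (0.0426), with the block (0.03) and without melanocyte replicate 3 (0.0287). Cyp46a1, the cholesterol hydroxylase known from neurons, had 1.92, 0.601 and 0.642 CPM in melanocytes, against 2.15 and 3.05 CPM in quiescent McSC (-1.29 ± 0.59, adjusted p = 0.107). Without melanocyte replicate 1, the highest of its group, it was called lower (adjusted p = 0.00384). Cyp7b1, an oxysterol hydroxylase, was below the level threshold at 0.691, 0.176 and 0.107 CPM in melanocytes and 0 and 0.0357 CPM in the stem cells (adjusted p = 0.0373). Its call was lost after leaving out either stem cell library (0.145 and 0.072) and with the block (0.0662).

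In the fatty acid and eicosanoid class no tested member was called higher in melanocytes and 8 of 15 were lower (53.3%), against 29.1% and 26.2% of all tested genes. All 9 measured members of its 25 lay below quiescent McSC in every melanocyte library. So did 5514 of the 14141 tested genes that reached the level threshold, and 36.4% of all tested genes. Of the 9 members, 7 were called. Of these 9, Cyp2j12 reached the level threshold in quiescent McSC libraries alone. The class summed to 60.2, 88.3 and 95.4 CPM in melanocytes and 321 and 320.2 CPM in the stem cells. Its members hydroxylate fatty acids (family 4) or form epoxides of arachidonic acid (several Cyp2j enzymes). Classes were assigned by hand, whole subfamilies at a time. Cyp2b19, an arachidonic acid epoxygenase described below, thus counts as xenobiotic.

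The Cyp2j genes form one cluster on chromosome 4 (96042660 to 96664171) with 7 members in the table, of which 4 were called lower, 2 were not called and 1 was not tested. Cyp2j9 (96568424 to 96592523) had 2.20, 1.67 and 1.98 CPM in melanocytes, against 75.6 and 73.5 CPM in quiescent McSC (-5.27 ± 0.16, adjusted p = 3.7e-05). Its neighbour Cyp2j6 (96516138 to 96564305) had 10.8, 35.8 and 37.4 CPM in melanocytes, against 141 and 137 CPM in quiescent McSC (-2.32 ± 0.49, adjusted p = 0.00851). Both genes were separated between groups, and melanocyte replicate 1 was the lowest library for Cyp2j6 but the highest of its group for Cyp2j9. Cyp2j12 had 1 count in melanocytes against 577 in quiescent McSC, a 422-fold difference in favour of quiescent McSC (95% interval 75.4 to 16690). Cyp2j8, below the level threshold, had 1 count against 162 (118-fold, 21.0 to 4706). In both genes the single melanocyte read was in replicate 1. Cyp2j13 had 0.289 ± 0.0281 CPM in melanocytes and 0.720 ± 0.298 CPM in the stem cells (SD, n = 3 and 2, adjusted p = 0.0515). At the edge of the same cluster Cyp2j5 had 0.271, 0.161 and 0.374 CPM in melanocytes and 0.193 and 0.232 CPM in the stem cells, with overlapping groups. Reads could be told apart within this cluster for the most part, since at most 0.772% of the words of 50 bases in the transcripts of these tested members occurred in another gene.

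The Cyp4f cluster on chromosome 17 (32452697 to 32947415) was less uniform. Cyp4f enzymes hydroxylate leukotrienes and long fatty acids. Cyp4f13 had 7.77, 7.77 and 10.5 CPM in melanocytes, against 28.3 and 28.7 CPM in quiescent McSC (-1.72 ± 0.19, adjusted p = 0.000772). Cyp4f39, whose human counterpart CYP4F22 hydroxylates very long fatty acids of the epidermal barrier and is mutated in ichthyosis, had 4.91, 5.88 and 6.79 CPM in melanocytes, against 8.73 and 11.6 CPM in quiescent McSC (-0.80 ± 0.25, adjusted p = 0.0353). That call was lost without melanocyte replicate 2 (0.0711), after leaving out either stem cell library (0.0624 and 0.225), with the block (0.0631) and on scaling by library size alone (0.0909). Cyp4f16 was the most even measured member, at 15.3, 17.3 and 17.4 CPM in melanocytes and 20.0 and 17.9 CPM in the stem cells (-0.19 ± 0.16, adjusted p = 0.354). It shared 17.4% of its words of 50 bases with other genes, most with Cyp4f37, so its reads are less certain. Cyp4f17 had 11.5, 8.33 and 9.25 CPM in melanocytes and 12.5 and 14.9 CPM in the stem cells (adjusted p = 0.0951), and was called lower by DESeq2 (0.0455) and without melanocyte replicate 1 (0.0321).

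Cyp4v3, the counterpart of the human fatty acid hydroxylase CYP4V2 that is mutated in a crystalline retinal dystrophy, had 1.92, 4.18 and 5.13 CPM in melanocytes, against 19.9 and 18.1 CPM in quiescent McSC (-2.35 ± 0.40, adjusted p = 0.00375). Of its exon bases 313 of 3808 are shared with a gene annotated on the same strand. Cyp4b1, a hydroxylase of fatty acids and of some protoxins, had 4.32, 6.07 and 5.40 CPM in melanocytes, against 7.75 and 11.2 CPM in quiescent McSC (-0.85 ± 0.27, adjusted p = 0.0386). This call was lost in 6 of the 12 alternative fits, among them those after leaving out either stem cell library (0.0529 and 0.257) and without melanocyte replicate 1 or 3 (0.0511 and 0.0794).

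The xenobiotic class has 47 members, of which 10 were measured and 17 had no count in any library. Of 14 tested, 3 were called higher in melanocytes (21.4%) and 7 lower (50%), against 29.1% and 26.2% of all tested genes. Of the 6 measured members called lower, all but Cyp2d22 reached the level threshold in quiescent McSC libraries alone. Cyp2d22 (chromosome 15, 82370527 to 82380260), the mouse Cyp2d gene most often compared with the human drug-metabolising CYP2D enzyme, had 9.10, 3.97 and 2.41 CPM in melanocytes, against 313 and 300.1 CPM in quiescent McSC (-5.86 ± 0.53, adjusted p = 0.000358). The lowest quiescent McSC library was far above the highest melanocyte library, and without melanocyte replicate 1 the log2 fold change was -6.50. None of the other 8 Cyp2d members in the cluster (82370527 to 82794452) was measured. Of these Cyp2d13, annotated as a transcribed pseudogene, was called lower at 0.0767 ± 0.0247 CPM in melanocytes and 0.396 ± 0.0298 CPM in the stem cells (SD, n = 3 and 2, adjusted p = 0.0108). Its call was lost after leaving out either stem cell library (0.0635 and 0.0553) and with the block (0.0777). Cyp2d22 shared 4.13% of its words of 50 bases with other genes, most with Cyp2d26, which had no count in melanocytes and 7 in quiescent McSC.

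The 2 best known targets of the aryl hydrocarbon receptor, of which Cyp1a1 passed the level threshold in quiescent McSC alone, differed in opposite directions. Their windows of 250 bases before the RefSeq start are shown because of this, for Cyp1a1 (chr9:57697363-57697612, plus strand) and Cyp1b1 (chr17:79715062-79715311, minus strand), from RefSeq, build GRCm38.p6. Capitals mark GCGTG on either strand, the core of the element that the receptor binds with its partner ARNT.
Cyp1a1: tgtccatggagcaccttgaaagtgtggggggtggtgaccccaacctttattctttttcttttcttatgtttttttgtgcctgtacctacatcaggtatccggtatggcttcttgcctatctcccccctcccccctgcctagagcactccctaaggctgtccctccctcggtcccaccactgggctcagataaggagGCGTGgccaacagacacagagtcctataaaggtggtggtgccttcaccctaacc
Cyp1b1: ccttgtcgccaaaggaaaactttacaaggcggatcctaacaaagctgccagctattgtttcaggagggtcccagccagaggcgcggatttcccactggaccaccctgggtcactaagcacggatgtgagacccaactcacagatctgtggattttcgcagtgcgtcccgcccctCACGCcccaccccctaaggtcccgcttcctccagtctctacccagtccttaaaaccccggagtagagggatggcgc

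Each window held 1 match, 54 to 50 bases before the Cyp1a1 start and 76 to 72 bases before the Cyp1b1 start. The Cyp1a1 window lies within the annotated gene span (57687928 to 57703824), so the start used there is not the outermost base. GCGTG occurred in 34.4% of the 21752 windows of the table's genes, in 16 of 83 windows of members (19.3%) and in 10 of 25 windows of measured members. It did not occur in the Cyp26a1 and Cyp26b1 windows. The known enhancers of Cyp1a1 lie further upstream and are outside this window.

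Cyp1a1, which oxidises aromatic hydrocarbons, had 0.148, 0.0733 and 0 CPM in melanocytes, against 3.74 and 5.54 CPM in quiescent McSC (-5.75 ± 0.68, adjusted p = 0.000912). Cyp1b1, which acts on aromatic hydrocarbons, oestrogens and retinoids, had 18.1, 12.0 and 12.6 CPM in melanocytes, against 2.81 and 1.62 CPM in quiescent McSC (2.69 ± 0.36, adjusted p = 0.00148). Neither gene overlapped between groups, and both calls held in each of the 12 alternative fits. For Cyp1a1, being lower in melanocytes came with the level threshold and is given as a description. Without melanocyte replicate 1 the log2 fold change of Cyp1a1 was -6.35. Cyp1a2, next to Cyp1a1 on chromosome 9 and a gene of the liver, had no count. The fibroblast and dermal papilla markers, higher in the same melanocyte libraries as Cyp1b1, are given above, and their part was not tested.

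Of the receptors and factors that control P450 genes, more were called lower than higher in melanocytes. Of 23 tested genes of a list of 29, 2 were called higher (8.7%) and 12 lower (52.2%), against 29.1% and 26.2% of all tested genes (median log2 fold change -0.87 against 0.03). Ahr, the aryl hydrocarbon receptor gene, had 11.7, 11.8 and 11.5 CPM in melanocytes, against 169.5 and 127 CPM in quiescent McSC (-3.67 ± 0.15, adjusted p = 4.5e-05). Tiparp, a target and repressor of that receptor, had 24.8, 37.5 and 28.9 CPM in melanocytes, against 293 and 281.5 CPM in quiescent McSC (-3.24 ± 0.19, adjusted p = 9.2e-05). Arnt2, which codes for a dimer partner, had 9.01 ± 1.95 CPM in melanocytes and 282 ± 18 CPM in the stem cells (SD, n = 3 and 2). Pparg, the fatty acid receptor gene that is also in the sebocyte list, had 1.49 ± 0.207 CPM in melanocytes and 32.2 ± 7.01 CPM in the stem cells. The repressor Ahrr was not called (1.27 ± 0.560 and 1.05 ± 0.148 CPM, adjusted p = 0.692). Beside Vdr the clock output gene Hlf was called higher (3.05 ± 0.57, adjusted p = 0.0052). The xenobiotic receptor genes Nr1i2 and Nr1i3, known from liver, had 1 and 23 counts in melanocytes and 21 and 16 in quiescent McSC, too few to be tested.

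Among the Cyp2b genes on chromosome 7 (25897658 to 26772630), Cyp2b10 and Cyp2b23 were called lower in melanocytes and Cyp2b19 was not called. Cyp2b10, a target of the xenobiotic receptor CAR in liver, had 0.715, 0.411 and 0.214 CPM in melanocytes, against 4.88 and 9.13 CPM in quiescent McSC (-3.91 ± 0.53, adjusted p = 0.00156). Cyp2b23 had no count in melanocytes and 106 and 232 counts in quiescent McSC, which made it at least 82.4-fold lower in melanocytes, against 3 counts over that group (adjusted p = 0.00134). Cyp2b19, an arachidonic acid epoxygenase of differentiating keratinocytes, had 7.60, 0.279 and 0.855 CPM in melanocytes, against 14.1 and 12.7 CPM in quiescent McSC (-2.19 ± 1.18, adjusted p = 0.16). Melanocyte replicate 1 stood well above the other melanocyte libraries, and without it Cyp2b19 was called lower (-4.82, adjusted p = 0.000201). The 14 keratinocyte markers summed to 5210, 4496 and 3734 CPM in melanocytes, against 3469 and 5001 CPM in quiescent McSC, so the groups overlapped, and 5 markers were called higher and 7 lower. Of the markers of keratinocyte differentiation, Krt10 had 70.5, 14.3 and 37.1 CPM in melanocytes, against 657 and 1261 CPM in quiescent McSC, and was called lower. Ivl had 77.8, 104 and 56.1 CPM in melanocytes, against 7.38 and 15.4 CPM in quiescent McSC, and was called higher. Krt10 was highest in replicate 1 among melanocytes, as Cyp2b19 was, and Ivl in replicate 2. The part of keratinocyte RNA in the values of Cyp2b19 was not tested.

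The measured Cyp3a members, Cyp3a13 and Cyp3a57, reached the level threshold in quiescent McSC libraries alone, so their being lower in melanocytes was set by that filter and is given as a description. Cyp3a13, a Cyp3a gene expressed outside the liver, had 0.321, 0.308 and 0.855 CPM in melanocytes, against 3.88 and 3.74 CPM in quiescent McSC (-3.04 ± 0.52, adjusted p = 0.00363). Cyp3a57 had 0.0247, 0.0440 and 0 CPM in melanocytes, against 1.83 and 3.11 CPM in quiescent McSC (-6.27 ± 0.64, adjusted p = 0.000554). It shared 8.63% of its words of 50 bases with other genes, most with Cyp3a59. Without melanocyte replicate 2 its log2 fold change was -7.07. The other 5 Cyp3a members, which include the main liver form Cyp3a11, were not measured.

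Cyp2s1, an epithelial member inducible through the aryl hydrocarbon receptor, was higher in melanocytes, at 29.8, 22.6 and 18.6 CPM, against 10.1 and 11.4 CPM in quiescent McSC (1.14 ± 0.24, adjusted p = 0.00853). Its call was lost without quiescent McSC replicate 1 (0.0632), and 260 of its 3161 exon bases are also exon of a gene on the opposite strand, whose reads cannot be told apart here. Cyp2e1, the ethanol-inducible member, had 1.01, 1.19 and 1.5 CPM in melanocytes and 0.770 and 0.812 CPM in the stem cells (0.63 ± 0.37, adjusted p = 0.191). Cyp2g1, known from olfactory mucosa, was called higher below the level threshold, with 47 counts in melanocytes and 6 in quiescent McSC (adjusted p = 0.0454). That call was lost without melanocyte replicate 1 (0.0641) and after leaving out either stem cell library (0.0511 and 0.206).

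Cyp20a1, a conserved member whose substrate is not settled (chromosome 1, 60343300 to 60388060), had 17.1, 16.2 and 12.3 CPM in melanocytes, against 35.1 and 37.1 CPM in quiescent McSC (-1.25 ± 0.18, adjusted p = 0.0019). Cyp2t4, just under the level threshold, was called lower at 0.592, 0.367 and 0.588 CPM in melanocytes and 1.22 and 1.11 CPM in the stem cells (adjusted p = 0.0438), a call lost in 7 of the alternative fits.

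Of the 66 members that were not measured, 22 had no count in any library and 44 had some. Those with no count were 9 of the 15 Cyp2c genes, 3 of the 4 Cyp2a genes, 2 Cyp2d genes and single genes or pairs of other subfamilies. The Cyp2c, Cyp2a and Cyp4a subfamilies, which are abundant in liver or kidney, had no measured member. The aromatase gene Cyp19a1, which makes oestrogens, had 0.294 ± 0.192 CPM in melanocytes and 0.342 ± 0.0160 CPM in the stem cells (SD, n = 3 and 2, adjusted p = 0.784). The remaining tested members that were not called were Cyp21a1, Cyp7a1, Cyp2u1, Cyp2w1, Cyp2c29, Cyp2f2, Cyp4a31 and Cyp4f37. Their adjusted p ran from 0.0751 (Cyp4a31) to 0.737 (Cyp2f2), and the highest level among them was 1.02 CPM, in one quiescent McSC library for Cyp2u1.

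Per kilobase of annotated exon the order of members differed between the groups. In quiescent McSC Cyp2d22 led at 113 and 108 CPM per kilobase, clear of Cyp2j6 (39.1 and 38.0), Cyp2j9 (37.1 and 36.1) and Cyp39a1 (33.3 and 32.5). None of these 4 overlapped with the next in the order. In melanocytes Cyp39a1 had the highest mean (8.13, 12.2 and 11 CPM per kilobase), followed by Cyp2j6 (2.99, 9.93 and 10.4), Cyp2s1 (9.42, 7.13 and 5.87), Cyp4f16 (6.82, 7.73 and 7.77) and Cyp20a1 (7.71, 7.27 and 5.53). Neighbours in this order overlapped, whereas Cyp39a1 lay above Cyp4f16 and Cyp20a1 in every library. Cyp2d22 was number 12 of the 28 in melanocytes.

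Genes for electron donors and haem supply of P450 enzymes were called in both directions. Of 23 genes 6 were called higher (26.1%) and 4 lower (17.4%) in melanocytes, against 29.1% and 26.2% of all tested genes (median log2 fold change 0.02). Por, the reductase that serves all microsomal members, was not called, at 70.0, 70.2 and 63.3 CPM in melanocytes and 76.4 and 80.8 CPM in the stem cells (-0.21 ± 0.10, adjusted p = 0.123). Fdxr, the reductase of the mitochondrial chain, was called lower at 8.63, 7.58 and 10.9 CPM in melanocytes, against 25.0 and 30.7 CPM in quiescent McSC (-1.63 ± 0.21, adjusted p = 0.00135), while its ferredoxin gene Fdx1 was not (adjusted p = 0.587). Pgrmc1, a haem-binding partner of P450 enzymes, was called lower (60.1 ± 9.28 CPM in melanocytes and 182 ± 7.26 CPM in the stem cells). So were Ppox, a late enzyme of haem synthesis (-1.39 ± 0.24), and Alas1, its rate-limiting first enzyme (-0.48 ± 0.13, adjusted p = 0.0194). The haem synthesis genes Cpox (1.46 ± 0.15) and Alad (1.17 ± 0.19) were called higher, as was the outer mitochondrial cytochrome b5 gene Cyb5b (0.99 ± 0.16). The call of Alas1 was lost without melanocyte replicate 3 (0.0571) or quiescent McSC replicate 2 (0.14), with the block (0.0787) and with library size only (0.0896).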

How the data were processed

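Poly-A RNA of 5 libraries, each a pool of males, was sequenced without strand information, per the labels. The authors deposited whole-number counts per gene and library, read here as raw counts. Per the submitters' processing notes, the tools include Salmon 0.8.2 and STAR 2.5.2a and the build is mm10. How reads were counted, and on which gene models, is not given in the sources used here. Of 24100 Entrez identifiers, 24045 matched a RefSeq symbol (GRCm38.p6, that is mm10), and exon lengths came from GENCODE for 93 of 94 members.

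Genes were filtered with filterByExpr, TMM-normalised and tested two-sided with edgeR 4.0.16 (R 4.3.3, glmQLFit and glmQLFTest), in one fit of all 5 libraries without covariates. P-values were Benjamini-Hochberg adjusted over 16953 genes (threshold 0.05), and each SE is the fold change over the root of F. The procedure was tested on simulated counts. Intervals are exact conditional binomial (95%) and, like floors of 3 counts, cover counting error only, since reads are not independent molecules. Members, substrate classes and gene lists were chosen with earlier results of these data known. Named were all measured or called members and up to 4 called genes per pathway list and direction with the smallest p, apart from items not reported here; Por, Fdx1, Ahrr, Nr1i2, Nr1i3, Corin, Krt10, Ivl and members neither measured nor called were named after their values were seen. Promoter windows were found for 73 members. DESeq2 1.42.0 was an alternative.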

Additional observations from a re-analysis of the deposited data

How the results depend on the processing

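Each of the 12 alternative fits kept the direction of every called member and pathway gene named above that it tested. With RLE size factors in place of TMM no call of these genes changed. Library size as the only scaling lost the calls of Cyp4b1, Cyp4f39, Cyp2t4 and Alas1 (adjusted p from 0.0828 to 0.0976) and gave a median of 0.26 over all genes (0.03 with TMM) and 6064 higher and 3456 lower calls in melanocytes, against 4937 and 4448 with TMM. The count of P450 members called higher was 3 under a filter of 1 CPM in 2 libraries and 3 after thinning to the shallowest library, settings that test fewer low members. Leaving out single libraries gave 2 to 5 members higher and 15 to 25 lower, 6 to 11 retinoid genes higher and 3 to 9 lower, and 2955 to 4857 of all genes lower, the fewest without quiescent McSC replicate 2. Without quiescent McSC replicate 1 the members called higher were 2, and without quiescent McSC replicate 2 or melanocyte replicate 2 they were 3. A lone quiescent McSC library is assumed to vary like the melanocytes. With the replicate number as a block, 5 members were higher and 18 lower, beside 3933 and 3479 of all genes. Cyp26b1 was then called higher (adjusted p = 0.0355). The replicate numbers do not pair the samples by the labels, and deviations of same-numbered libraries correlated at 0.0404 and -0.0552. The number of measured members was 27 to 35 under other definitions. Where causes are not given, the cause was not tested. Members under 1 CPM rest on few reads, and in the shallowest library 3 counts are already 0.171 CPM.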
